A study of Mus musculus with 2 samples.

Results

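The genes described here are 10 members of the Bcl2 family, taken from a list of names: the pro-survival genes Bcl2, Bcl2l1, Mcl1, Bcl2a1a, Bcl2a1b and Bcl2a1d, the pore-forming effector Bax, and the BH3-only genes Bcl2l11, Bbc3 and Pmaip1. All 10 were found by symbol among the 31053 genes of the count matrices. The family decides at the outer mitochondrial membrane whether a cell starts apoptosis. Pro-survival proteins hold the effectors in check, BH3-only proteins bind and neutralise them, and freed effectors open the membrane. In lymphocytes Bcl2 and Mcl1 are known for keeping resting cells alive under cytokine signals, and Bcl2a1 for its induction through NF-kappaB.

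Single-cell RNA was counted in 2 libraries of epidermal cells, 1 made after an isotype control antibody was given and 1 after anti-Skint1 antibody. Skint1 is a keratinocyte protein needed for the selection of dendritic epidermal T cells (DETCs), the resident gamma-delta T cells of mouse epidermis. The animals were wild-type FVB/NJ female mice of 8 weeks, injected in the skin 7 d before ear epidermis was taken. Live cells with CD45 on the surface but neither EpCAM nor MHC class II were sorted.

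The isotype library held 27272211 unique molecular identifiers (UMIs, each standing for 1 captured mRNA molecule) and the other 32450957. Pairs of values are given for isotype and then for anti-Skint1. A barcode was taken as a cell when it had between 500 and 2500 genes and no more than 12% of its UMIs from mitochondrial genes, which left 4242 cells from the isotype library and 5961 from the other. The libraries shared 5 kept cell barcodes. DETCs, defined by at least 3 UMIs each of Trdc and the CD3 chains and no Trac, Cd4, Cd8a or Cd8b1, numbered 3544 and 4945. Alpha-beta T cells, with at least 1 Trac UMI and no Trdv4, numbered 197 and 213. Innate lymphoid cell (ILC) barcodes, with at least 3 UMIs over Il7r, Rora and Gata3, at most 2 over the CD3 chains and no Trdv4, numbered 82 and 139. A further 428 and 678 kept barcodes fell in no class, and 9 and 14 fell in both of the smaller classes.

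Levels are UMIs per 1000000 UMIs of a class and library (CPM). A UMI counts a molecule by its 3′ end whatever its length, but capture differs between genes. Brackets hold exact 95% intervals, Poisson for a level, conditional binomial for a ratio and Clopper-Pearson for a share of cells. They cover counting error only. With 1 library per treatment, treatment and library cannot be told apart, no difference has a replicate check, and since cells are no replicates, nothing was tested.

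The classes matched their markers in part. All 7 DETC list genes had UMIs in DETCs, with a summed level of 13902 CPM under isotype and 13220 CPM under anti-Skint1, and Trdc led at 4673 CPM in the former and Cd3e at 4050 CPM in the latter. Trdc, Cd3d and Cd3e were part of the class definition, so that their levels lend no support. Of the list genes outside it, Tcrg-C1 stood at 1029 and 1096 CPM and Trdv4 at 978 and 789 CPM. Ptprc stood at 944 and 956 CPM and Tcrg-V5 at 59.0 and 62.6 CPM. The ILC class was mixed. In it the Langerhans or myeloid list, led by Cd74, summed to 1311 CPM with 7 of 7 genes detected under isotype and to 2011 CPM with 6 of 7 under anti-Skint1. The keratinocyte list, led by Krt14, summed there to 486 CPM with 5 of 6 genes detected and to 4325 CPM with 6 of 6. In DETCs the same lists stayed at 17.5 and 15.1 CPM (myeloid, 5 and 7 of 7 genes) and at 19.7 and 33.8 CPM (keratinocyte, 6 of 6 genes in both). The alpha-beta T class, defined by Trac (584 and 499 CPM), had UMIs of all 9 genes of its list, which summed to 3500 and 3083 CPM, led by Trbc2. That sum hardly marks the class, since it was 2591 and 2232 CPM in DETCs (5 of 9 genes) and 1933 and 1803 CPM in ILCs (7 of 9), led by Trbc1 in both. The ILC list summed to 2418 and 2326 CPM in ILCs (6 and 7 of 9 genes, led by Il7r), with Klrg1 at 0 in both libraries and Il1rl1 at 0 under isotype, but also to 2219 and 2278 CPM in alpha-beta T cells (8 of 9, led by Id2). Il7r, Rora and Gata3 define the ILC class, so that their part of the sum lends no support. Outside the definition, Id2 stood in ILCs at 640 and 573 CPM, Thy1 at 230 and 156 CPM and Kit at 83.6 and 111 CPM. In alpha-beta T cells Id2 and Thy1 were higher and Kit lower in both libraries. The alpha-beta T class also held gamma-delta T cell markers. Of the DETC list 5 and 6 of 7 genes were detected there, at 2856 and 3178 CPM, led by Cd3e, with Trdv4 at 0 by definition and Tcrg-V5 at 0 under isotype. Trdc rose from 300 to 546 CPM (log2 ratio 0.87, 0.64 to 1.10) and Tcrg-C1 from 81.2 to 140 CPM. Of the dermal gamma-delta list 4 of 5 genes were detected in each library, at 194 CPM, led by 5830411N06Rik, and 203 CPM, led by Il17a, with Tcrg-V4 at 0 in the former and Tcrg-V6 in the latter. Il17a went from 64.9 to 126 CPM and 5830411N06Rik from 106 to 61.0 CPM. In ILCs 3 of 5 genes of that list were detected in each library, at 123 and 97.0 CPM, led by 5830411N06Rik at 99.2 and 84.9 CPM. The 3 mast cell genes Cpa3, Mcpt4 and Tpsb2 were at 0 in every class.

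The question of the class comparison is how DETCs differ from their epidermal neighbours in survival and death genes. DETCs had more Bcl2 and less Bcl2a1 than alpha-beta T cells and ILCs. Their state also differed. The immediate early list described further on (11 of 11 genes, led by Fos) summed to 10487 and 10515 CPM in DETCs, 5621 and 7026 CPM in alpha-beta T cells and 3011 and 4578 CPM in ILCs. The heat shock list (7 of 7) summed to 6386 and 4718 CPM, 2243 and 2470 CPM, and 1504 and 1991 CPM. The cell cycle list used further on summed to 219 and 199 CPM in DETCs and 495 and 520 CPM in alpha-beta T cells. In ILCs it summed to 151 and 91.0 CPM. The part of these lists in the class differences was not tested. Bcl2, the founding pro-survival member, stood in DETCs at 220 CPM (213 to 228) under isotype and 207 CPM (201 to 214) under anti-Skint1. In alpha-beta T cells its levels were 59.9 CPM (44.2 to 79.5) and 70.5 CPM (53.7 to 91.0), and in ILCs 33.9 CPM (18.1 to 58.1) and 54.6 CPM (38.2 to 75.6). DETCs were thus high in both libraries, and their intervals lay above those of the other classes taken whole, which overlapped each other. The log2 ratio of DETCs over alpha-beta T cells was 1.88 (1.47 to 2.32) under isotype and 1.55 (1.18 to 1.95) under anti-Skint1, and over ILCs 2.70 (1.92 to 3.61) and 1.92 (1.45 to 2.44).

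The order turned around for Bcl2a1, whose 3 gene copies encode near-identical pro-survival proteins and were summed because reads split between them with uncertainty. The sum stood in DETCs at 12.5 CPM (10.7 to 14.4) under isotype and 6.52 CPM (5.42 to 7.79) under anti-Skint1. Alpha-beta T cells had 180 CPM (152 to 212) and 154 CPM (129 to 183), and ILCs 159 CPM (122 to 205) and 218 CPM (184 to 257). Every DETC interval lay below every interval of the other classes. The log2 ratio of DETCs over alpha-beta T cells was -3.85 (-4.17 to -3.52) and -4.56 (-4.93 to -4.20), and over ILCs -3.67 (-4.10 to -3.23) and -5.07 (-5.43 to -4.71).

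Put as UMIs of Bcl2 per UMI of Bcl2a1, DETCs had 17.6 (15.2 to 20.6) under isotype and 31.8 (26.5 to 38.4) under anti-Skint1. The same quotient was 0.333 (0.235 to 0.465) and 0.457 (0.330 to 0.627) in alpha-beta T cells and 0.213 (0.107 to 0.392) and 0.250 (0.168 to 0.362) in ILCs. Bcl2 outnumbered Bcl2a1 only in DETCs among these 3 classes, in both libraries.

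**Figure D1:**
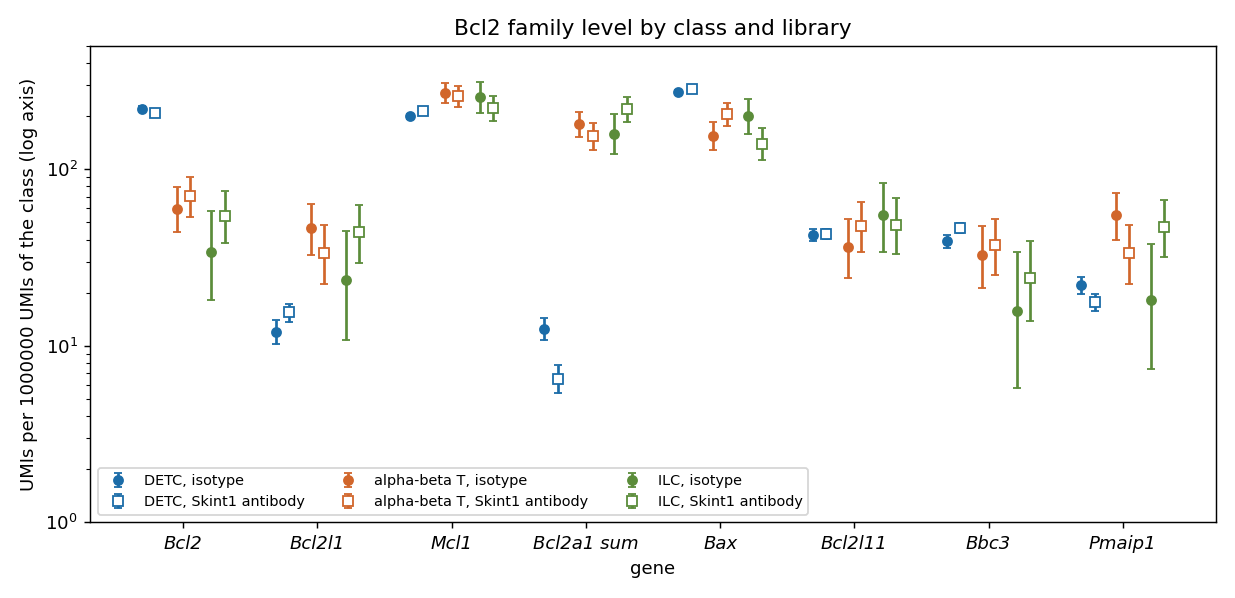
Level of each gene in UMIs per 1000000 UMIs of a class (log axis), for DETCs, alpha-beta T cells and ILCs under isotype (filled circles) and anti-Skint1 (open squares), with the 3 Bcl2a1 genes summed. Bars are exact 95% Poisson intervals for counting error. Bcl2 is highest in DETCs, at 220 and 207 CPM, and Bcl2a1 lowest there, at 12.5 and 6.52 CPM.

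Since free RNA in droplets gives UMIs to cells that do not express a gene, its level was read from barcodes with 1 to 100 UMIs. Bcl2a1 made up 32.5 CPM (26.8 to 39.0) of that RNA under isotype and 18.9 CPM (14.5 to 24.3) under anti-Skint1, more than in DETCs in both. If all keratinocyte list UMIs in DETCs came from free RNA, it made up 1.74% and 2.02% of DETC UMIs, which would give 0.565 and 0.383 CPM of Bcl2a1. The levels measured in DETCs were above these values.

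After each cell was thinned to 2000 UMIs, 1.94% (1.5 to 2.46) of DETCs under isotype and 1.08% (0.802 to 1.41) under anti-Skint1 had a Bcl2a1 UMI. In alpha-beta T cells the shares were 19.5% (14.1 to 25.8) and 25.5% (19.6 to 32.2). Without thinning they were 3.24% and 1.94% of DETCs and 36.0% and 32.4% of alpha-beta T cells, at median depths of 4027.5 and 3577 UMIs in DETCs and 3766 and 3581 in alpha-beta T cells. Keratinocyte list genes, which DETCs should lack and which made up 1132 and 1671 CPM of the free RNA, gave a UMI in 3.67% and 6.16% of thinned DETCs. For Bcl2 the thinned shares were 31.4% (29.8 to 33.0) and 30.5% (29.2 to 31.8) of DETCs against 12.6% (8.26 to 18.2) and 10.7% (6.76 to 15.9) of alpha-beta T cells, and the unthinned ones 49.3% and 45.6% against 17.3% and 17.4%.

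Within the alpha-beta T class, Bcl2 was uneven. Cells with Cd8a or Cd8b1 UMIs had 127 CPM (69.2 to 212) over 25 cells under isotype and 128 CPM (58.7 to 244) over 17 cells under anti-Skint1. Cells with Cd4 and no Foxp3 had 12.6 CPM (1.52 to 45.4) and 22.4 CPM (6.10 to 57.3) over 44 cells in each. The CD8 cells lay above the CD4 cells without overlap of the intervals in either library, and these subsets were chosen after seeing the data. The CD8 interval under anti-Skint1 held the DETC level of 207 CPM, so for these few cells a level below that of DETCs was not shown there. Most cells of the class, 110 and 140, had neither marker nor Foxp3, and Bcl2 stood in them at 61.0 CPM (40.6 to 88.2) and 79.7 CPM (57.9 to 107). The 16 and 12 cells with Foxp3 had 2 UMIs of Bcl2 in each library. Bcl2a1 did not follow that order, at 118 CPM (62.6 to 201) and 186 CPM (98.8 to 317) in the CD8 cells and 207 CPM (143 to 291) and 185 CPM (127 to 259) in the CD4 cells. In the isotype CD8 cells Bcl2 was thus not below Bcl2a1, with 14 and 13 UMIs.

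The mixed ILC class was also split after seeing the data. Barcodes with at least 20 keratinocyte list UMIs numbered 1 and 10 and held 0 Bcl2a1 UMIs in both libraries. Another 13 and 21 barcodes with at least 3 UMIs of the myeloid, neutrophil, mast or B cell lists held 28 of the 61 Bcl2a1 UMIs of the class under isotype and 51 of 144 under anti-Skint1. Over the remaining 68 and 108 barcodes Bcl2a1 stood at 110 CPM (75.5 to 154) and 201 CPM (162 to 246), still above DETCs, and Bcl2 at 36.6 CPM (18.2 to 65.4) and 69.1 CPM (47.2 to 97.5), still below them. The log2 ratio of DETCs over these remaining barcodes was -3.13 (-3.68 to -2.55) and -4.94 (-5.35 to -4.54) for Bcl2a1. The split did not use the dermal gamma-delta list, so barcodes with its UMIs may be among the remaining ones.

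Of the remaining pro-survival genes, Bcl2l1, which encodes Bcl-xL, was low in DETCs. It stood there at 12 CPM (10.3 to 13.9) under isotype and 15.4 CPM (13.7 to 17.3) under anti-Skint1, against 46.2 CPM (32.5 to 63.7) and 33.5 CPM (22.2 to 48.4) in alpha-beta T cells and 23.5 CPM (10.7 to 44.6) and 44.0 CPM (29.5 to 63.2) in ILCs. DETCs lay below alpha-beta T cells in both libraries, while against ILCs the intervals overlapped under isotype only. Mcl1, a short-lived pro-survival protein, was abundant in every class. Its levels were 199 CPM (192 to 207) and 214 CPM (207 to 220) in DETCs, 271 CPM (236 to 310) and 259 CPM (226 to 296) in alpha-beta T cells, and 256 CPM (208 to 312) and 221 CPM (187 to 260) in ILCs. DETCs were below alpha-beta T cells without overlap, by log2 ratios of -0.44 (-0.64 to -0.24) and -0.28 (-0.48 to -0.08).

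Bax, the effector that forms pores in the mitochondrial membrane, was the most abundant member by UMIs in DETCs. It stood at 274 CPM (265 to 282) under isotype and 284 CPM (276 to 291) under anti-Skint1, against 155 CPM (129 to 185) and 206 CPM (176 to 239) in alpha-beta T cells and 201 CPM (159 to 251) and 140 CPM (112 to 171) in ILCs. DETC intervals lay above those of the other classes in both libraries. The log2 ratio over alpha-beta T cells was 0.82 (0.56 to 1.09) and 0.46 (0.25 to 0.69).

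Among the BH3-only genes, Bcl2l11, which encodes Bim, hardly differed between classes. It had 42.5 CPM (39.2 to 46.0) and 43.0 CPM (40.1 to 46.1) in DETCs, 36.2 CPM (24.3 to 52.0) and 47.8 CPM (34.2 to 65.1) in alpha-beta T cells, and 54.8 CPM (33.9 to 83.8) and 48.5 CPM (33.2 to 68.5) in ILCs, and all these intervals overlapped within a library. Bbc3, which encodes the p53 target Puma, stood at 39.2 CPM (36.0 to 42.5) and 46.5 CPM (43.4 to 49.6) in DETCs, overlapping alpha-beta T cells at 32.5 CPM (21.2 to 47.6) and 37.1 CPM (25.2 to 52.6) and above ILCs at 15.7 CPM (5.75 to 34.1) and 24.3 CPM (13.9 to 39.4). Pmaip1, which encodes Noxa, the partner that binds Mcl1 and Bcl2a1, was lower in DETCs than in alpha-beta T cells. Its levels were 22.0 CPM (19.6 to 24.5) and 17.6 CPM (15.7 to 19.6) in DETCs, 54.9 CPM (39.9 to 73.8) and 33.5 CPM (22.2 to 48.4) in alpha-beta T cells, and 18.3 CPM (7.35 to 37.7) and 47.0 CPM (31.9 to 66.7) in ILCs. For ILCs the interval held the DETC level under isotype and lay above it under anti-Skint1, but over the remaining ILC barcodes of the split above, Pmaip1 under anti-Skint1 was at 19.4 CPM (8.88 to 36.9), and the log2 ratio of DETCs over them was -0.14 (-1.09 to 1.00).

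Counted with a floor of 50 CPM in either class and a fold of 2, 5 members under isotype could be compared between DETCs and alpha-beta T cells, of which 1 (Bcl2) was higher and 2 (Bcl2a1b and Pmaip1) lower in DETCs. Of all 3256 genes at that floor, 14.2% were higher and 7.56% lower. Under anti-Skint1 1 (Bcl2) of 4 members was higher and 1 (Bcl2a1b) lower, against 12.2% and 6.47% of 3123 genes. Over ILCs, 1 (Bcl2) of 6 members was higher and 2 (Bcl2a1a and Bcl2a1b) lower under isotype, against 18.1% and 10.0% of 3341 genes, and 2 (Bcl2 and Bax) of 5 were higher and 2 (Bcl2a1a and Bcl2a1b) lower under anti-Skint1, against 18.2% and 9.20% of 3218 genes. Bcl2a1a, Bcl2a1b and Pmaip1 reached the floor only through the other class, and Bcl2 over ILCs under isotype only through DETCs, so that these counts lend no support. The call of Bax, at 2.03-fold, was close to the fold and was lost over the remaining ILC barcodes (1.78-fold) and relative to the median gene (log2 ratio 0.87). The median gene of these comparisons was itself shifted by a log2 ratio of 0.12 and 0.16 over alpha-beta T cells and 0.08 and 0.16 over ILCs. Relative to the median gene, Bcl2 was at 1.76 and 1.40 over alpha-beta T cells and 2.62 and 1.77 over ILCs, and Bcl2a1 at -3.97 and -4.72 and at -3.75 and -5.22.

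The 3 Bcl2a1 genes lie on mouse chromosome 9 in the GENCODE vM21 annotation of GRCm38, Bcl2a1d at chr9:88723285-88731914, Bcl2a1a at chr9:88956900-88962419 and Bcl2a1b at chr9:89199209-89207827. Aligned transcripts were identical at 97.9% of positions for Bcl2a1a and Bcl2a1b, 93.7% for Bcl2a1a and Bcl2a1d, and 93.9% for Bcl2a1b and Bcl2a1d. Of the 303 windows of 98 bases (the length of a read) within the last 400 bases, 74.9% for Bcl2a1a, 51.2% for Bcl2a1b and 45.2% for Bcl2a1d were found in no other gene. Reads came from FVB/NJ mice and were counted against a reference of another strain, so the split between the copies is uncertain. Whether reads shared by copies entered the sum was not tested, so its level beside that of Bcl2 is uncertain as well. As counted, Bcl2a1b led in alpha-beta T cells, with 101 and 94 of 144 and 129 UMIs, and Bcl2a1a in ILCs, with 26 and 66 of 61 and 144. Over the remaining ILC barcodes the 2 copies hardly differed, with 15 UMIs of Bcl2a1a and 13 of Bcl2a1b under isotype and 38 of each under anti-Skint1.

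Because the 3 copies were low in DETCs and high in the other classes together, the 186 bases before each GENCODE start are printed from RefSeq promoters of build GRCm38.p6, in the direction of transcription. They span chr9:88956714-88956899 (plus strand) for Bcl2a1a, chr9:89199023-89199208 (plus strand) for Bcl2a1b and chr9:88731915-88732100 (minus strand) for Bcl2a1d. Capitals mark matches on either strand to 3 searched motifs, AP-1 (TGANTCA), CRE (TGACGTCA) and Egr (GCGNGGGCG).
Bcl2a1a: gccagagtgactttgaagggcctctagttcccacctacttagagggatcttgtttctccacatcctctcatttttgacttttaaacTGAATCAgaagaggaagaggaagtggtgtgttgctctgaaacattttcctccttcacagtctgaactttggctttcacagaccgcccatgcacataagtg
Bcl2a1b: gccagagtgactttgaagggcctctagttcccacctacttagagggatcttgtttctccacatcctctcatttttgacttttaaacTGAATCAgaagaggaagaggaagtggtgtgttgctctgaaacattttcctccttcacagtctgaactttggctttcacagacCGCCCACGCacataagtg
Bcl2a1d: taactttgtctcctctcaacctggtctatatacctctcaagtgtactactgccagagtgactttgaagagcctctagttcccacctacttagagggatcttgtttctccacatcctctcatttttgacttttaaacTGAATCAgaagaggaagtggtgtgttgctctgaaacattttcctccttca
An AP-1 match, TGAATCA, stood in all 3 windows, and an Egr match, CGCCCACGC, in that of Bcl2a1b. The first 2 windows were identical at 185 of 186 aligned positions. The AP-1 match began 100 bases before the start of these 2 genes and 50 before that of Bcl2a1d. It lay in a stretch shared by all 3 windows, so the 3 matches are not independent. Among 32851 promoters, windows of the same length held the AP-1 motif in 5.13%, the Egr motif in 4.13% and the CRE motif in 1.46%. Those windows end at the RefSeq start and the printed ones at the GENCODE start, so their positions differ. A match is a run of letters and not a bound site.

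The treatment comparison asks whether survival genes in DETCs differed 7 d after anti-Skint1 antibody was given. Over all DETCs the abundant members hardly differed between the libraries. There the log2 ratio under anti-Skint1 over isotype was -0.09 (-0.16 to -0.02) for Bcl2, 0.10 (0.03 to 0.17) for Mcl1 and 0.05 (-0.01 to 0.11) for Bax, from the levels given above. These 3 members had at least 50 CPM, and 0 of them passed 1.5-fold in either direction, where 0% of 2920 genes were higher and 0.240% lower. With a floor of 5 CPM, chosen after seeing the data, 0 of 8 members were higher and 1, Bcl2a1b, lower, against 0.413% and 0.631% of 9193 genes. In DETCs grouped by UMIs of the activation list (Xcl1, Gzmc and Tnfrsf9), a split made after seeing the data, the ratio of Bcl2 was -0.08 (-0.16 to 0.00) with 0 UMIs, 0.03 (-0.14 to 0.19) with 1 or 2 and -0.66 (-0.99 to -0.34) with at least 3, the last from 240 CPM over 312 cells and 152 CPM over 169 cells. That last value depended on the thinning. Over 20 further draws it ran from -0.60 to -0.25, below 0 in all, so the draw shown lay outside their range.

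Among the scarcer members, Bcl2l1 was higher under anti-Skint1 by a log2 ratio of 0.36 (0.09 to 0.64) and Bbc3 by 0.25 (0.09 to 0.40), while Pmaip1 was lower at -0.32 (-0.55 to -0.09) and Bcl2l11 was at 0.02 (-0.13 to 0.17). All 4 stayed within 1.5-fold over all DETCs. In small groups Bcl2l11 did not: its ratio was 0.89 (0.25 to 1.53) with at least 3 activation UMIs, from 44 and 43 UMIs, and -1.31 (-2.48 to -0.23) with at least 3 cell cycle UMIs, from 25 and 11. Over the further draws these ran from 0.49 to 1.12 and from -2.14 to -0.74. Bcl2l1 was at 1.25 (-0.32 to 3.10) with at least 3 cell cycle UMIs, from 5 and 13 UMIs, above 0 in all 20 draws. With at least 3 activation UMIs it was at -0.17 (-1.59 to 1.12), from 17 and 8, and below 0 in all draws. In the highest immediate early quartile it was at -0.21 (-0.86 to 0.45), above 0 in 2 of 20 draws. In the other groups it was above 0 in the draw shown. Pmaip1 was at -0.64 (-1.21 to -0.09) in the second immediate early quartile, and from -0.80 to -0.14 over the draws. With 1 or 2 activation UMIs it was at 0.31 (-0.22 to 0.85), above 0 in 9 of 20 draws. With at least 3 cell cycle UMIs it was at 0.20 (-2.02 to 2.53), from 4 and 5 UMIs, above 0 in 17. In the highest immediate early quartile it was at -0.13 (-0.50 to 0.23), but above 0 in 16 of the draws. In the remaining groups the draw shown was below 0.

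Bcl2a1 was the exception, with 183 UMIs over DETCs under isotype and 122 over DETCs under anti-Skint1, and a log2 ratio of -0.94 (-1.28 to -0.60). By copy, Bcl2a1a had 40 and 14 UMIs, Bcl2a1b 131 and 94, and Bcl2a1d 12 and 14. The lower level under anti-Skint1 thus rested on Bcl2a1a and Bcl2a1b as counted. Few cells carried it: 115 DETCs under isotype and 96 under anti-Skint1 had a UMI, and the 10 cells with most held 30.1% and 25.4% of the UMIs. Free RNA moved the same way, from 32.5 to 18.9 CPM. Markers of other lymphocytes in DETCs went both ways. Il17a was at -0.80 (-1.16 to -0.45) and Klrb1c at -0.97 (-1.41 to -0.55). Tcrg-V4 was at 0.79 (0.29 to 1.31) and Tcrg-V6 at 0.51 (-0.001 to 1.04). The dermal gamma-delta list summed to 22.9 and 20.5 CPM and the natural killer cell list (3 and 4 of 4 genes) to 652 and 641 CPM. Prf1 made up 644 and 636 CPM of the latter, and had 68.7 and 92.1 CPM in alpha-beta T cells and 2.61 and 4.55 CPM in ILCs. The natural killer cell sum thus hardly marks other lymphocytes. The part of these markers was not tested. The activation list (3 of 3 detected) summed to 672 CPM, led by Xcl1, under isotype and 324 CPM, led by Gzmc, under anti-Skint1, and the heat shock list (7 of 7) to 6386 CPM, led by Hspa1b, and 4718 CPM, led by Hsp90aa1. In groups of DETCs by these lists, formed after seeing the data, the ratio was -1.06 (-1.60 to -0.52) in the lowest heat shock quartile and -0.38 (-1.16 to 0.38) in the highest, and -1.09 (-1.48 to -0.70) with 0 activation UMIs, -0.18 (-1.19 to 0.81) with 1 or 2 and -0.66 (-1.94 to 0.47) with at least 3. Over the further draws the ratio with 1 or 2 activation UMIs was above 0 in 3 of 20, and that in each of the other 4 groups in 0. The part of these lists beyond such values was not tested. Without the 10 cells with most UMIs of each library the log2 ratio was -0.84, and with free RNA subtracted -0.96. Quartiles of the immediate early list described further on gave, from the lowest to the highest, ratios of -3.08 (-4.29 to -2.05), 0.45 (-0.48 to 1.42), -0.44 (-1.06 to 0.17) and -1.04 (-1.65 to -0.45). They came from 52 and 9, 17 and 27, 52 and 43, and 62 and 41 UMIs, and the middle 2 intervals held 0. The ratio in the second quartile changed sign with the thinning draw. Over 20 further draws, added after seeing the data, it ran from -1.21 to 0.49 and was above 0 in 4, while in the other quartiles it was below 0 in all 20.

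In alpha-beta T cells 0 of 5 members at 50 CPM were higher and 1, Pmaip1, lower under anti-Skint1, against 2.44% and 4.98% of 2832 genes. It reached the floor through the isotype library alone, so that this call lends no support. Its log2 ratio was -0.71 (-1.45 to 0.00). The sum of Bcl2a1 there had a ratio of -0.22 (-0.58 to 0.13) and Bcl2 of 0.23 (-0.34 to 0.82), and all 3 intervals reached 0. Bax, at 0.41 (0.07 to 0.75), was the 1 member of this class with an interval free of 0. The gamma-delta markers of this class, given above, moved between the same libraries, and their part was not tested. In ILCs 2 of 6 members, Bcl2 and Bcl2a1b, were higher and 0 lower, against 7.47% and 12.3% of 2892 genes. Their ratios were 0.69 (-0.26 to 1.72) and 0.73 (-0.03 to 1.54), and both intervals held 0. Bcl2 reached the floor through the anti-Skint1 library alone. Bax was lower in ILCs, at -0.53 (-0.98 to -0.07), and over the remaining barcodes at -0.34 (-0.85 to 0.17). The count of 2 ran from 0 to 6 over the alternatives, and with at most 5% mitochondrial UMIs the ratio of Bcl2 turned to -1.03. Pmaip1 in ILCs had 7 and 31 UMIs and a ratio of 1.36 (0.15 to 2.79). Of the 31, 14 lay in the 10 keratinocyte-rich barcodes, and over the remaining barcodes its ratio was 0.55 (-1.29 to 2.70). The Bcl2a1 sum in ILCs was at 0.45 (0.01 to 0.91), and over the remaining barcodes at 0.87 (0.29 to 1.49).

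Within DETCs, members were set beside the immediate early list (Fos, Fosb, Jun, Junb, Egr1, Ier2, Atf3, Dusp1, Nr4a1, Btg2 and Zfp36), genes transcribed within minutes of a stimulus. DETCs thinned to 2000 UMIs were ranked by their summed UMIs of that list, with quartile bounds of 7, 18 and 32 UMIs over both libraries. Of the members, the BH3-only gene Pmaip1 had the largest rise with the list in both libraries. It stood under isotype at 3.52 CPM in the lowest quartile, 18.0 and 30.9 CPM in the middle ones and 36.3 CPM in the highest. Under anti-Skint1 the levels were 1.85, 11.5, 27.9 and 33.1 CPM. It thus rose over each step in both libraries, from 13 UMIs in 870 cells to 115 in 776 cells and from 10 in 1344 cells to 143 in 1182 cells. The log2 ratio of the highest over the lowest quartile was 3.36 (2.53 to 4.32) and 4.16 (3.24 to 5.25).

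Bcl2l11 rose from 23.6 CPM (870 cells) over 40.1 and 49.0 to 58.4 CPM under isotype and from 24.0 CPM over 39.5 and 49.7 to 64.1 CPM under anti-Skint1, by log2 ratios of 1.31 (0.93 to 1.69) and 1.42 (1.11 to 1.73). Under anti-Skint1 the Bcl2a1 sum rose more than Bcl2l11, by 2.51 (1.45 to 3.74) from 9 to 41 UMIs, but under isotype by 0.47 (-0.08 to 1.03). Mcl1 went from 174 to 233 CPM and from 160 to 272 CPM, by 0.42 (0.26 to 0.57) and 0.76 (0.64 to 0.89). Bcl2 went from 198 to 246 CPM and from 183 to 218 CPM, by 0.31 (0.16 to 0.46) and 0.25 (0.12 to 0.38). Of the Bcl2a1 copies as counted, Bcl2a1b rose by 0.93 (0.23 to 1.67) and 2.78 (1.51 to 4.33), from 28 to 46 and from 6 to 33 UMIs. Bcl2a1a and Bcl2a1d were at -0.37 each under isotype and at 2.33 and 1.33 under anti-Skint1, with 0 inside all these intervals. Pmaip1, Bcl2l11, Mcl1, Bcl2 and, as counted, Bcl2a1b were thus higher in the highest than in the lowest quartile of both libraries. Bax went the other way, from 304 to 227 CPM and from 312 to 249 CPM, by -0.42 (-0.56 to -0.28) and -0.32 (-0.44 to -0.21). Bbc3 had ratios of -0.29 (-0.66 to 0.07) and -0.18 (-0.47 to 0.11), with 0 inside both intervals.

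**Figure D2:**
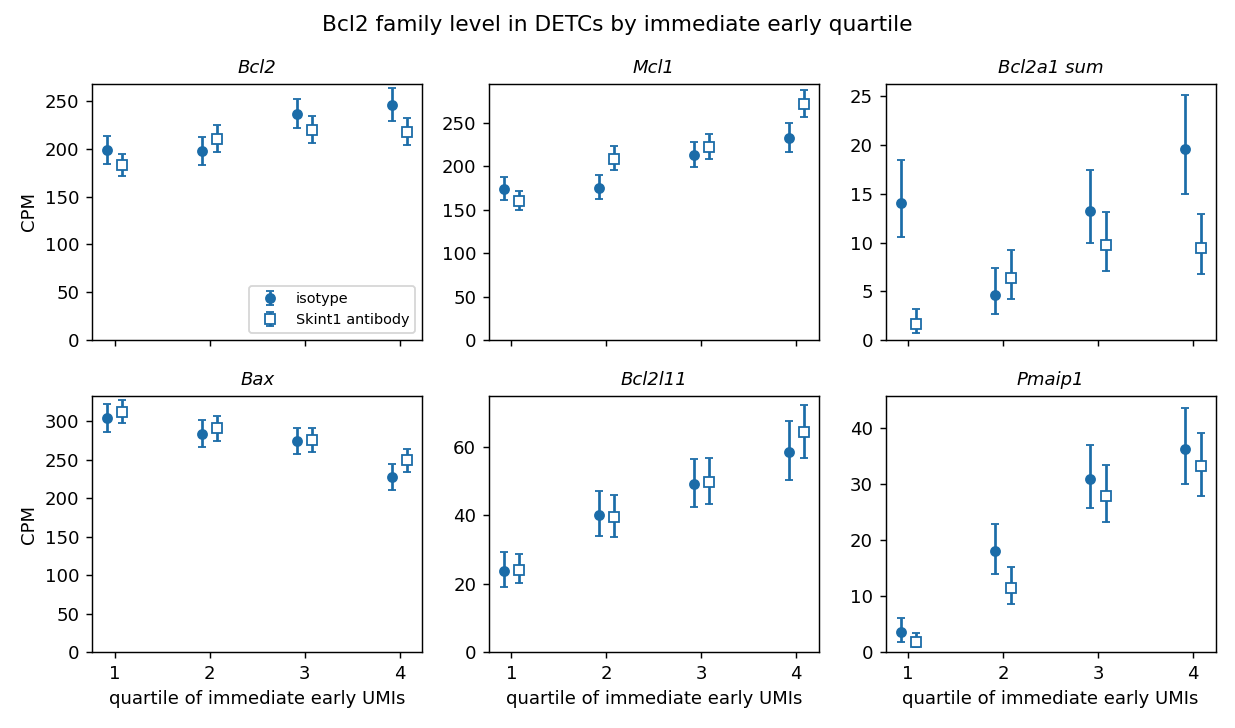
Level of 5 genes and of the Bcl2a1 sum in DETCs, in CPM, by quartile of summed immediate early UMIs, for isotype (filled circles) and anti-Skint1 (open squares). Bars are exact 95% Poisson intervals for counting error. Pmaip1 rises from 3.52 to 36.3 CPM and from 1.85 to 33.1 CPM.

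The median gene fell between these quartiles by log2 ratios of -0.22 and -0.19. Relative to it, Pmaip1 was at 3.58 and 4.36, Bcl2l11 at 1.53 and 1.61, Mcl1 at 0.64 and 0.96, Bcl2 at 0.53 and 0.44, and Bax at -0.20 and -0.13. Of 4 members at 50 CPM in either quartile, 1 (Bcl2l11) passed 1.5-fold upward and 0 downward under isotype, against 12% and 10.8% of 3261 genes. Under anti-Skint1 2 of 4 (Mcl1 and Bcl2l11) were higher and 0 lower, against 13.5% and 8.96% of 3157 genes. Bcl2l11 reached the floor only through the highest quartile, so that its calls lend no support, and Pmaip1 lay below the floor.

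The heat shock list also rose from the lowest to the highest quartile, from 2980 to 8494 CPM under isotype and from 2635 to 6339 CPM under anti-Skint1, and its part in these ratios was not tested. Median depth was 4002.5 and 3986.5 UMIs in the lowest and highest quartile under isotype and 3763 and 3460 under anti-Skint1. Which cells fall in a quartile depends on the random thinning. Over 20 further draws, added after seeing the data, the ratio of Pmaip1 ran from 3.21 to 4.51 and from 3.57 to 4.61, and that of Bcl2l11 from 1.09 to 1.43 and from 1.28 to 1.58. For Mcl1 and Bcl2 the ratio was above 0, and for Bax below 0, in all 20 draws of both libraries.

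DETCs with cell cycle UMIs had less Bcl2. Thinned DETCs with at least 3 UMIs of the cell cycle list numbered 79 under isotype and 77 under anti-Skint1, and Bcl2 stood in them at 142 CPM (108 to 183) and 126 CPM (95.7 to 163). In the other DETCs it stood at 221 CPM (214 to 229) and 208 CPM (202 to 215). The group with cell cycle UMIs lay lower without overlap in both libraries, by log2 ratios of -0.64 (-1.03 to -0.27) and -0.73 (-1.13 to -0.35). These ratios moved with the thinning draw, from -0.95 to -0.53 and from -1.19 to -0.58 over 20 further draws, and stayed below 0 in all of them. An earlier draw, seen before these, gave an isotype ratio further below 0 than that range, so the range understates the spread. Mcl1 was also lower, at -0.49 (-0.89 to -0.12) and -0.82 (-1.23 to -0.44), while Bax was at 0.22 (-0.04 to 0.47) and 0.32 (0.09 to 0.55). From few UMIs, 10 and 8 in the group with cell cycle UMIs, Bbc3 was at -0.73 (-1.80 to 0.16) and -1.44 (-2.66 to -0.46), below 0 in all further draws of both libraries. Bcl2l11, from 25 and 11 UMIs, went opposite ways, at 0.50 (-0.14 to 1.08) and -0.87 (-1.88 to -0.02). Of 4 members at 50 CPM, 0 were higher and 1 (Bcl2) lower past 1.5-fold under isotype, against 16.6% and 10.4% of 3301 genes, and of 3 members 0 were higher and 2 (Bcl2 and Mcl1) lower under anti-Skint1, against 16.5% and 12.9% of 3183 genes. Median depth was higher in these cells, 5362 and 6436 UMIs against 4058 and 3608.5, and its part was not tested.

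For the 3 members above 50 CPM in DETCs of both libraries, the genes with the most similar pattern over 3410 and 4743 thinned DETCs were sought among 2762 genes. Bcl2 lay nearest to Pim2 (Pearson r of 0.10 under isotype and 0.07 under anti-Skint1), Pik3cd (0.06 and 0.09) and Ccnd2 (0.08 and 0.06). Mcl1 lay nearest to Btg2 (0.05 and 0.11), Egr1 (0.08 and 0.06) and Fos (0.05 and 0.08), and Bax to Rps19 (0.16 and 0.17), Vim (0.10 and 0.10) and Rps27l (0.07 and 0.09). Cells share their library, the counts are sparse, and such weak correlations are a description only.

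Of 48 other genes of the apoptosis pathway, 15 had at least 50 CPM in DETCs of either library, and 0 passed 1.5-fold between treatments in either direction, with a median log2 ratio of -0.04 beside -0.03 over all genes, of which 0% were higher and 0.240% lower. Between treatments 0 of 14 passed it in alpha-beta T cells, against 2.44% and 4.98% of all genes, and of 13 in ILCs 1 (Trp53) was higher and 1 (Cflar) lower, against 7.47% and 12.3%. Both reached the floor through 1 library alone, so that these calls lend no support. Between classes, 3 of 16 were higher past 2-fold and 1 lower in DETCs than in alpha-beta T cells under isotype, against 14.2% and 7.56% of all genes, and 1 and 0 of 16 under anti-Skint1, against 12.2% and 6.47%. Over ILCs 6 were higher and 1 lower under isotype, against 18.1% and 10.0%, and 6 and 0 under anti-Skint1, against 18.2% and 9.20%, each of 16. Birc2, which encodes the ubiquitin ligase cIAP1, had the highest level in DETCs among the mitochondrial and caspase genes, at 446 and 461 CPM in DETCs, 190 and 206 CPM in alpha-beta T cells and 88.8 and 103 CPM in ILCs. It was higher in DETCs in both libraries.

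The p53 target Cdkn1a had 218 and 215 CPM in DETCs, 101 and 116 CPM in alpha-beta T cells and 86.2 and 78.9 CPM in ILCs. Il2rb, the receptor chain for IL-2 and IL-15, had 215 and 180 CPM in DETCs, 94.9 and 96.8 CPM in alpha-beta T cells and 88.8 and 72.8 CPM in ILCs. Both genes were highest in DETCs of both libraries. Il2rg, the common receptor chain of these cytokines, was the most abundant of the 48 in DETCs and ILCs, at 532 and 536 CPM in DETCs, 380 and 406 CPM in alpha-beta T cells and 431 and 446 CPM in ILCs, within 2-fold throughout. Bad, a BH3-only gene, and Tnfaip3, a brake on NF-kappaB, also passed the fold over ILCs, with log2 ratios of 1.77 and 1.70 and of 1.15 and 1.40. Birc3, which encodes cIAP2, was lower in DETCs than in alpha-beta T cells, at 35.2 and 34.6 CPM against 73.7 and 59.8 CPM, past the fold under isotype only. The death receptor Fas was lower than in ILCs, at 42.1 and 45.0 CPM against 86.2 and 71.3 CPM, again past the fold under isotype only. Bad reached the floor through DETCs alone, and Birc3 and Fas through the other class alone, so that these 3 calls lend no support.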

How the data were processed

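The authors made the deposited values, raw counts of UMIs for every gene and every barcode with no cell left out, with Cell Ranger 3.0.2 against mm10. From these counts, UMIs were summed per class and library and divided by the class total. The tools were Python 3.11.15, pandas 2.3.3, numpy 2.4.6, matplotlib 3.10.9 and scipy 1.17.1. Ratios are log2 ratios of CPM with no pseudocount. Cells below 2000 UMIs were left out wherever cells were thinned. Doublets were not scored: the limit of 2500 genes, the class definitions and an alternative without barcodes of other cell type markers stand in for that. Members and gene lists were chosen with earlier results of these data known. The genes named are every member, the pathway genes past the fold or at the highest level of their role in DETCs, and the 3 nearest genes of each member at 50 CPM, except that 1 pathway gene past the fold is not described here. Ratios and intervals were tested on simulated data. The groups of DETCs by immediate early and cell cycle UMIs were first formed from another thinning draw, whose values were seen, and 20 further draws are given for that reason.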

Additional observations from a re-analysis of the deposited data

Results flagged for a closer look

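The treatment ratio of 3 genes differed between classes, with the 2 classes on opposite sides of 0 and each interval free of 0. Each difference was not tested, since every class has 1 library per treatment. For Bax the log2 ratio in alpha-beta T cells exceeded that in ILCs by 0.94. For Pmaip1 the ratio in DETCs less that in ILCs was -1.68, and for the Bcl2a1 sum -1.39. The ILC class held barcodes rich in keratinocyte, myeloid or other cell type UMIs in unequal numbers. Without them, a choice made after seeing the data, the ILC ratio was -0.34 (-0.85 to 0.17) for Bax and 0.55 (-1.29 to 2.70) for Pmaip1, so that both intervals held 0, and 0.87 (0.29 to 1.49) for the Bcl2a1 sum.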

How the results depend on the processing

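No paired analysis was possible because each treatment has 1 library. Of 1234 recomputed log2 ratios, 1084 stayed within the counting interval of the main value, 137 moved beyond it and 13 of ratios past the fold changed sign. Where a value changed, the cause was not tested. Alternatives beyond the planned ones, among them the DETC groups by heat shock, activation and cell cycle UMIs, the ILC barcodes left out and the thinning draws, were chosen after seeing the data.

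For Bcl2a1 between treatments in DETCs, the main log2 ratio of -0.94 became -3.08, 0.45 and -0.44 in immediate early quartiles 1, 2 and 3, -0.38 in the highest heat shock quartile and -0.18 with 1 or 2 activation UMIs. It was -1.06 in the lowest heat shock quartile, -1.09 with 0 activation UMIs and -0.66 with at least 3. For Bcl2 the ratio of -0.09 became -0.66 with at least 3 activation UMIs, and from -0.60 to -0.25 over 20 further draws. For Bcl2l11 the ratio of 0.02 became 0.89 there and -1.31 with at least 3 cell cycle UMIs, with the same sign in all draws. The ratio of the Bcl2a1 sum was -2.12 in DETCs with at least 3 cell cycle UMIs. For that sum in immediate early quartile 2 the ratio ran from -1.21 to 0.49 over 20 further draws, above 0 in 4 of them. Bcl2a1a was at 0.11 in quartile 2, from 4 and 5 UMIs, and 1.12 with 1 or 2 activation UMIs, from 1 and 2. Of the further draws with UMIs in both libraries, the former was above 0 in 4 of 19 and the latter in 0 of 2. Bcl2a1b was at 0.57 in quartile 2 and 0.090 with at least 3 activation UMIs. These were above 0 in 5 and 2 of 20 further draws.

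With at most 5% mitochondrial UMIs, the count of members past 1.5-fold between treatments went from 1 to 2 in alpha-beta T cells and from 2 to 6 in ILCs, where Bcl2 turned to -1.03 and Bcl2a1b to -0.13. In ILCs it became 0 with no upper limit on genes, 4 without mitochondrial and ribosomal protein genes in the total and 5 after thinning. It was 3 relative to the median gene, without barcodes of 2 classes, and without keratinocyte-rich barcodes with or without those of other cell types. At a floor of 20 CPM it was 5, and at 100 CPM 0, as in alpha-beta T cells.

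Members past 2-fold between DETCs and alpha-beta T cells went from 3 to 5 under isotype without mitochondrial and ribosomal protein genes and at 20 CPM, and from 2 to 4 under anti-Skint1 at 20 CPM. Under isotype they were 4 after thinning and 2 at 100 CPM. Against ILCs under isotype they went from 3 to 5 in the same settings and to 1 at 100 CPM, without barcodes of other cell types and without these and keratinocyte-rich barcodes. They were 4 with at most 5% mitochondrial UMIs and 2 as a mean over cells. Under anti-Skint1 they went from 4 to 7 at 20 CPM, to 5 with at most 5% mitochondrial UMIs, without barcodes of 2 classes, without mitochondrial and ribosomal protein genes and after thinning, and to 3 in 7 further settings, among them the remaining ILC barcodes and the ratio to the median gene, where Bax fell below the fold.

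Relative to the median gene, 2 members in place of 1 passed the fold between immediate early quartiles under isotype. Between them under anti-Skint1, Bcl2a1a turned to -0.78 and Bcl2a1d to -0.10 with no upper limit on genes, and Bcl2a1a to -1.71 with a gate of 1 UMI. Between cell cycle groups, members past the fold went from 1 to 2 under isotype with that gate and without mitochondrial and ribosomal protein genes, and under anti-Skint1 from 2 to 1 after thinning and to 4 without those genes. With no upper limit on genes Bcl2a1b turned to -0.17 under isotype and Bcl2a1 to -0.10 under anti-Skint1. Pmaip1 reached 0.40 at the highest of 20 further draws under anti-Skint1.

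Counts of the Bcl2a1 copies in DETCs, from 12 to 131 UMIs, limit what their split shows.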

Other observations

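Barcodes above 2500 genes, left out of every class and not split by cell type, had less Bcl2 and more Pmaip1 than DETCs. The part of cell make-up in this difference was not tested. Over 467 barcodes under isotype and 464 under anti-Skint1 with at most 12% mitochondrial UMIs, Bcl2 stood at 108 CPM (99.1 to 117) and 87.0 CPM (79.6 to 95), and Pmaip1 at 46.1 CPM (40.5 to 52.2) and 57.4 CPM (51.4 to 64.0). Bcl2a1 stood there at 39.6 CPM (34.5 to 45.3) and 21.8 CPM (18.2 to 26). In barcodes over the mitochondrial limit, 185 and 169 and also not split by cell type, Bcl2 was at 192 CPM (150 to 241) and 139 CPM (103 to 184).

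The Bcl2a1 sum followed the immediate early quartiles of DETCs unevenly. Its log2 ratio of the highest over the lowest quartile was 0.47 (-0.08 to 1.03) under isotype and 2.51 (1.45 to 3.74) under anti-Skint1, from 52 and 62 and from 9 and 41 UMIs. Of its copies as counted, Bcl2a1b was higher in the highest quartile of both libraries. Bcl2l1 had ratios of -0.17 (-0.81 to 0.46) and -0.95 (-1.47 to -0.44). In DETCs with at least 3 cell cycle UMIs Bcl2a1 had 20 and 5 UMIs, with ratios over the other DETCs of 2.03 (1.28 to 2.70) and 0.76 (-0.89 to 2.03).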
